A study of Mus musculus with 24 samples.

Results

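The genes described here code for the subunits of the 5 oxidative phosphorylation complexes, read in neutrophils of NOD.c3c4 mice, a congenic NOD strain that develops autoimmune biliary disease. They were chosen by symbol: names that begin with Nduf followed by a, b, c, s or v and a digit (complex I), the 4 Sdh genes (complex II), Uqcr (complex III), Cox followed by a digit of 4 to 8 (complex IV), Atp5 (complex V), or mt- followed by Nd, Co, Cytb or Atp, leaving out symbols that hold -ps. The table of 9 blood and liver libraries held 78 such rows of 18474, all encoded in the nucleus: 36 for complex I, 4 for complex II, 8 for complex III, 14 for complex IV and 16 for complex V. The table of 15 antibody libraries held 89 such rows of 22505: 82 nuclear genes (37, 4, 8, 16 and 17 for complexes I to V) and 7 genes of the mitochondrial genome, mt-Nd1, mt-Nd2, mt-Nd4, mt-Nd5, mt-Nd6, mt-Cytb and mt-Co1. No mt-Atp row was present, and mt-Co1 was the only mt-Co row. The mitochondrial sums and ratios below therefore cover these 7 genes and not all subunits that the mitochondrial genome codes for. Together these are 90 genes, 77 of them in both tables, with Atp5f1 of the first table counted as the same gene as Atp5pb of the second. The symbol rule also takes in Atp5s, which codes for a protein related to a coupling factor and not for a subunit, and Cox6c2, a processed copy of Cox6c, and it places Ndufa4 with complex I, although the protein is now assigned to complex IV.

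All libraries were bulk RNA-seq (TruSeq Stranded mRNA) of cells labelled as neutrophils. Treatment was 10 doses, given by vein, of nanoparticles (NP) that carry the ligand called PDC166 in the labels. The first table holds liver neutrophils of treated mice (2 libraries) and of untreated mice (2), and blood neutrophils of treated mice (2) and of untreated mice (3). In the second table all 15 libraries come from liver neutrophils of mice that received these nanoparticles, together with a blocking antibody labelled anti-GCF (3 libraries), anti-IL21R (3), anti-TGFb (2), anti-IL35 (2) or anti-IL10 (2), or with an isotype control antibody (3). The labels give no age, do not say what the cells were sorted on, and do not say whether replicates came from separate mice, so the p-values rest on variation among these libraries that may be technical. What GCF stands for is not given. The series asks how liver and blood neutrophils differ with the nanoparticle treatment, and how liver neutrophils of treated mice change when a cytokine or its receptor is blocked.

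Oxidative phosphorylation passes electrons from NADH (complex I) and succinate (complex II) through complex III to oxygen at complex IV, and complexes I, III and IV pump protons across the inner mitochondrial membrane. Complex V, the ATP synthase, makes ATP as protons flow back through it. Complexes I, III, IV and V contain both nuclear-encoded and mitochondrially encoded subunits, complex II only nuclear-encoded ones. Mature neutrophils are known for drawing their ATP mainly from glycolysis and for few mitochondria, whereas hepatocytes are among the cells richest in mitochondria.

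Library totals ran from 34724353 to 46384502 counts in the first table and from 23559681 to 47469935 in the second. Levels are given as CPM, read counts relative to the TMM-scaled library total, and each table was scaled and tested apart from the other. The neutrophil label was checked against 12 neutrophil markers: they summed to 182049 and 183665 CPM in treated liver, 31999 and 34217 CPM in untreated liver, 89434 and 86391 CPM in treated blood and 113777, 138858 and 275296 CPM in untreated blood. A list of 19 hepatocyte markers summed to 106 and 85.7 CPM in treated liver, 16383 and 21839 CPM in untreated liver, 9.76 and 6.88 CPM in treated blood and 48.5, 67.9 and 38.6 CPM in untreated blood. None of the 19 was at 0 in a liver group, and 4 of them (Cps1, Hnf4a, Mup20 and Ttr) were at 0 in both treated blood libraries. The 2 untreated liver libraries thus stand apart from the other 7 of their table. In the second table the 3 anti-GCF libraries stand apart, with neutrophil markers at 20369 to 28668 CPM, against 145606 to 173673 CPM under isotype, and with 10 Kupffer cell and macrophage markers at 5919 to 10751 CPM, against 237 to 665 CPM under isotype. Neutrophil markers also lay below the isotype range under anti-TGFb, at 84117 to 89945.5 CPM, and under anti-IL10, at 45243 to 99200.3 CPM. Fewer cells of a type and less RNA per cell cannot be told apart in such samples. In the first table the library numbers in the labels fall in 1 range for all treated and another for all untreated samples, so a batch, if those numbers mark one, and the treatment cannot be told apart.

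Promoters of 67 of the 83 nuclear genes were found among 27025 RefSeq promoter windows (build GRCm38.p6, 250 bases before to 50 after the start), and 4 upstream parts are printed to show the matches described next. Sdhb, Uqcr11 and Atp5k were lower in treated than in untreated liver, and Cox6b2 was the 1 member that was higher. They were chosen after the matches were seen. Each line gives the 250 bases before the RefSeq start on the gene's strand, 5′ to 3′, with matches in capitals.

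Sdhb (complex II iron-sulphur subunit; chr4:140961021-140961270, plus strand): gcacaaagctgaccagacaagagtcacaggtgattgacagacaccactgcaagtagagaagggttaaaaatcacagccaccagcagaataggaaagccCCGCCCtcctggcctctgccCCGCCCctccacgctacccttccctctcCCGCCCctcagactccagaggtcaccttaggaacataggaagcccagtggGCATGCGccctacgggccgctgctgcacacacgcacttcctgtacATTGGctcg
Uqcr11 (small complex III subunit; chr10:80406822-80407071, minus strand): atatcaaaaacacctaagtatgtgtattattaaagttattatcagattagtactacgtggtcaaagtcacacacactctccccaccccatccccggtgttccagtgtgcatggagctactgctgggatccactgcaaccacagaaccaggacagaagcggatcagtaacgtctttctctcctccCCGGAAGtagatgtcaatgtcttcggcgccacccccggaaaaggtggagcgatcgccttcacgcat
Atp5k (complex V subunit e; chr5:108434400-108434649, minus strand): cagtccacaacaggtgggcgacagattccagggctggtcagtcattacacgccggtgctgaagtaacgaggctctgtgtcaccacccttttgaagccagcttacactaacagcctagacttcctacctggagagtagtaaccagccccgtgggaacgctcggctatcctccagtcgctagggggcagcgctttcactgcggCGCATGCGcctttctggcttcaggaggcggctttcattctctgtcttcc
Cox6b2 (complex IV subunit 6B of testis; chr7:4753095-4753344, minus strand): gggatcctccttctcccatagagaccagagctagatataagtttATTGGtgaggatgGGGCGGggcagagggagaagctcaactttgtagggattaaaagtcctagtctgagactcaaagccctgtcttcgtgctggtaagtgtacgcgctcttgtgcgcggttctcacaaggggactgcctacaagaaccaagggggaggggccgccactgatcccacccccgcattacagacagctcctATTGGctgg

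Both strands were searched for 8 short stretches, each named after the factor that is known to bind it. ETS letters (CCGGAAG; the family includes GABPA) stood in 23.9% of the 67 promoters and in 9.12% of all promoters, or 11.9% of those of protein-coding genes. NRF1 letters (CGCATGC) stood in 14.9%, against 3.64% of all promoters and 4.49% of protein-coding ones. For YY1, with ATGGCGG, the share was 13.4%, against 4.19% of all promoters and 5.41% of protein-coding ones. For ESRRA, with AAGGTCA, it was 11.9%, against 4.66% of all and 4.08% of protein-coding ones. GABPA, NRF1, YY1 and ESRRA are known regulators of nuclear respiratory genes. SP1 letters (GGGCGG) stood in 41.8% of the members' promoters, which lies above the 35.9% of all promoters but below the 46.3% of protein-coding ones. For NFY, with CCAAT, the share was 44.8%, against 37.9% of all and 39.0% of protein-coding ones. TATA box letters (TATAAA) stood in 8.96%, against 14.2% of all promoters and 13.3% of protein-coding ones. MEF2 letters, spelled TATTTAT, stood in 1.49%, against 5.75% of all and 4.96% of protein-coding ones. The SP1 and YY1 stretches can overlap each other, and the NRF1 stretch is nearly palindromic, so the single run in Atp5k matches on both strands. In the 250 bases shown, Sdhb holds SP1, NRF1 and NFY letters, Uqcr11 ETS letters, and Cox6b2 SP1 and NFY letters; further matches in the windows reach into the bases after the start. The members' promoters were richer in C followed by G, with a median of 19, against 13 in protein-coding promoters and 7 in all. Their median GC content was 58.3%, against 56.3% in protein-coding promoters and 52.7% in all. The ETS, NRF1, YY1 and SP1 letters hold CG, and the part of base composition in the shares was not tested. These are matches of letters and not binding sites, and the shares were not tested. For treated against untreated liver, the median log2 fold change was −1.68 for 15 members with ETS letters and −1.91 for 51 without. It was −1.88 for 10 members with NRF1 letters and −1.89 for 56 without. For treated against untreated blood the order for ETS letters was the other way, at −0.97 for the 15 members with them and −0.62 for the 51 without. With NRF1 letters the blood median was −0.84, and without them −0.66.

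In liver neutrophils of treated mice nearly all nuclear-encoded subunit genes tested were lower than in the libraries labelled liver neutrophils of untreated mice. The summed level of the nuclear members was 3616 and 3190.0 CPM in treated liver, against 11798 and 16213 CPM in untreated liver, and the ranges did not overlap. Of 77 members tested, 71 were lower and 1 was higher at an adjusted p under 0.05 (edgeR quasi-likelihood test, Benjamini-Hochberg over all 16719 genes tested), and 5 passed in neither direction. The background was large: 64.1% of all genes tested were called, 36.3% lower and 27.8% higher. The members' median log2 fold change was −1.90, against −0.29 over all genes. Upper-quartile scaling moved the median of all genes to −0.02 and that of the members to −1.62, with 69 lower and 1 higher.

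By complex, 32 of 36 complex I genes were lower (median −1.88), all 4 of complex II (−2.59), all 8 of complex III (−2.36), 12 of 13 tested for complex IV (−1.30) and 15 of 16 for complex V (−2.13). Complex I summed to 1059 and 919.7 CPM in treated liver, against 2869 and 3811 CPM in untreated liver. Complex II summed to 234 and 219.8 CPM in treated liver, against 1152 and 1548 CPM in untreated liver. Complex III summed to 367 and 320.4 CPM in treated liver, against 1463 and 2117 CPM in untreated liver. Complex IV summed to 679.6 and 591 CPM in treated liver, against 1455 and 1758 CPM in untreated liver. Complex V summed to 1276 and 1139 CPM in treated liver, against 4860.0 and 6979 CPM in untreated liver. Treated and untreated liver libraries did not overlap for any of the 5 sums, and complex IV differed least. Markers of cell types differed between the same libraries: 18 of 19 hepatocyte markers were lower in treated liver (median log2 fold change −6.93), while 10 of 12 neutrophil markers (2.27), 12 of 12 immature neutrophil markers (3.54) and 8 of 10 erythroid markers (6.68) were higher. Of 7 B cell markers 4 were lower and none higher (−2.04), with sums of 722 and 621 CPM in treated liver, against 3306 and 3410 CPM in untreated liver. Of 12 T and NK cell markers 7 were lower and 1 higher (−2.65), while their sum was 257 and 276 CPM in treated liver, against 151 and 88.6 CPM in untreated liver. The part of those cells in the members' difference was not tested.

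**Figure D1:**
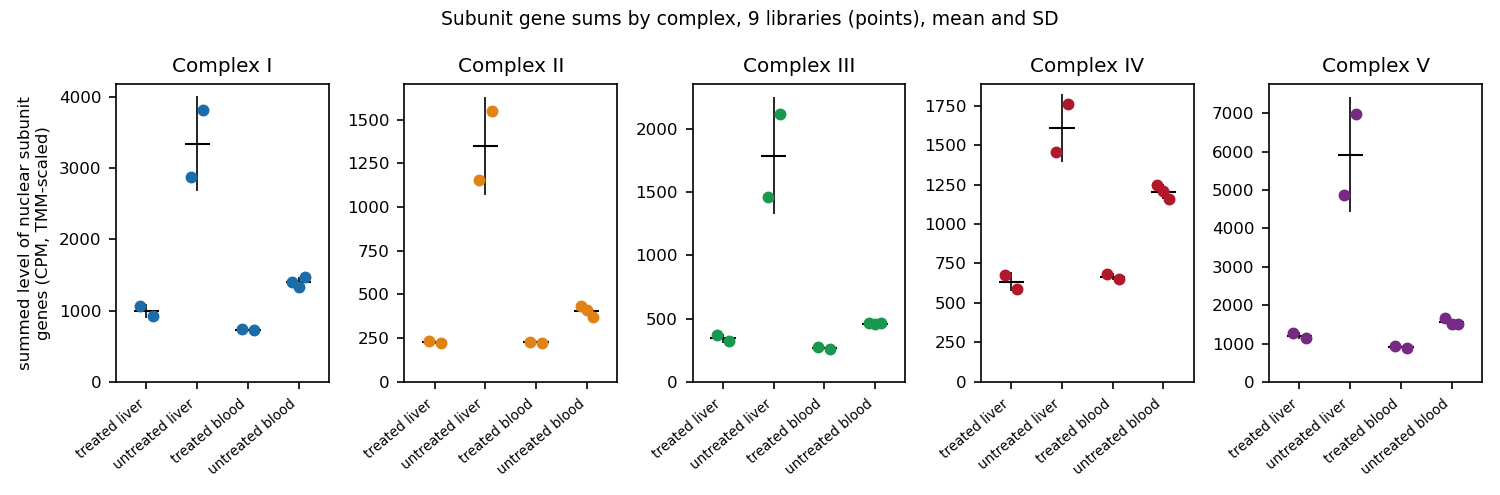
Summed level of the nuclear subunit genes of complexes I to V (y axis, CPM with TMM scaling, from 0) in the 9 blood and liver libraries; points are libraries, horizontal lines group means and vertical lines SD. For all 5 complexes the 2 untreated liver libraries lie above every other library, for complex I at 2869 and 3811 CPM, and for all 5 the treated blood libraries lie below the untreated blood libraries.

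Among the 7 nuclear core subunits of complex I, which carry the flavin and iron-sulphur centres, all 7 were lower in treated liver, with a median of −2.31, and 25 of the 29 other complex I genes were lower, with a median of −1.74. Across the 32 complex I genes that fell, the log2 fold changes ran from −4.01 to −0.81. Ndufv1, which binds NADH and FMN, had 19.97 and 15.2 CPM in treated liver, against 191 and 293 CPM in untreated liver. Ndufv1 changed by −3.78 ± 0.28 (SE) on the log2 scale with an adjusted p of 6.1e-06. Ndufs3, a core subunit of the arm that faces the matrix, had 7.71 and 5.35 CPM in treated liver, against 87.7 and 122 CPM in untreated liver (log2 fold change −4.01 ± 0.33 SE, adjusted p = 9.7e-06), the second largest fall of the 77 members tested. Untreated blood lay near treated liver for both genes, at 21.2, 17.3 and 14.0 CPM for Ndufv1 and 10.3, 7.82 and 5.61 CPM for Ndufs3, while the untreated liver libraries lay far above both. The accessory subunits with the smallest adjusted p were Ndufa10 and Ndufa9. Ndufa10, an accessory subunit with a nucleoside kinase fold, had 18.5 and 15.6 CPM in treated liver, against 109.8 and 139.5 CPM in untreated liver (log2 fold change −2.87 ± 0.19 SE, adjusted p = 3.0e-06). Ndufa9, which holds the matrix and membrane arms together, had 23.98 and 19.2 CPM in treated liver, against 126 and 155 CPM in untreated liver (log2 fold change −2.70 ± 0.19 SE, adjusted p = 3.9e-06). For both genes the treated and untreated values lay far apart compared with the spread within each pair, which their choice by adjusted p favours.

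The complex I genes that passed in neither direction were Ndufa1, Ndufa13, Ndufb7 and Ndufs4, accessory subunits, and they are named because they are the exceptions in this complex. Ndufa1, an X-linked membrane-arm subunit, had 33.4 and 28.005 CPM in treated liver, against 28.9 and 32.7 CPM in untreated liver (log2 fold change −0.01 ± 0.17 SE, adjusted p = 0.98), with overlapping values. Ndufa13, also known as GRIM-19, had 57.1 and 53.6 CPM in treated liver, against 66.0 and 67.9 CPM in untreated liver (log2 fold change −0.27 ± 0.15 SE, adjusted p = 0.12). Ndufb7 had 75.9 and 67.6 CPM in treated liver, against 84.5 and 111 CPM in untreated liver (log2 fold change −0.44 ± 0.23 SE, adjusted p = 0.11). Ndufs4, an accessory subunit of the NADH-binding module, had 45.6 and 40.6 CPM in treated liver, against 53.3 and 60.1 CPM in untreated liver (log2 fold change −0.39 ± 0.18 SE, adjusted p = 0.081). A gene that misses the threshold in this fit is not shown to be equal in the groups.

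All 4 genes of complex II, which also works in the citric acid cycle, were lower in treated liver. Sdhc, a membrane anchor, had 33.6 and 29.6 CPM in treated liver, against 255 and 362 CPM in untreated liver. Sdhc changed by −3.29 ± 0.20 (SE) on the log2 scale with an adjusted p of 2.1e-06. Sdha, the flavoprotein that oxidises succinate, had 64.8 and 63.0 CPM in treated liver, against 395 and 558 CPM in untreated liver (log2 fold change −2.90 ± 0.24 SE, adjusted p = 1.0e-05). Sdhb, the iron-sulphur subunit whose promoter is printed above, had 54.6 and 49.4 CPM in treated liver, against 214 and 289 CPM in untreated liver (log2 fold change −2.27 ± 0.19 SE, adjusted p = 1.2e-05). The fourth, Sdhd, the other membrane anchor, had the smallest fall of the 4, with 80.9 and 77.9 CPM in treated liver, against 287 and 339 CPM in untreated liver (log2 fold change −1.98 ± 0.16 SE, adjusted p = 1.0e-05). These 4 calls stand in a comparison where 64.1% of all genes were called. The 8 complex III genes fell by between 1.42 and 3.27 on the log2 scale, and the smallest adjusted p went to Uqcrfs1 and Uqcrq. Uqcrfs1, the Rieske iron-sulphur protein, had 46.9 and 39.5 CPM in treated liver, against 344 and 488 CPM in untreated liver (log2 fold change −3.27 ± 0.21 SE, adjusted p = 2.9e-06). Uqcrq, a small subunit next to cytochrome b, had 39.3 and 35.5 CPM in treated liver, against 269 and 439 CPM in untreated liver (log2 fold change −3.24 ± 0.24 SE, adjusted p = 6.3e-06). The core proteins fell less, Uqcrc1 by 2.29 and Uqcrc2 by 1.42 on the log2 scale.

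Complex IV held the smallest median fall and the only member that was higher. Cox5a, an early-assembling subunit, had 46.5 and 39.7 CPM in treated liver, against 143 and 195 CPM in untreated liver (log2 fold change −1.97 ± 0.19 SE, adjusted p = 2.2e-05). Cox7b had 40.7 and 32.3 CPM in treated liver, against 136 and 197 CPM in untreated liver (log2 fold change −2.19 ± 0.21 SE, adjusted p = 2.6e-05). Cox4i1, the widespread form of subunit 4, fell less than these 2, with 163 and 139 CPM in treated liver, against 348 and 358 CPM in untreated liver (log2 fold change −1.23 ± 0.15 SE, adjusted p = 1.0e-04). Cox6a1, the widespread form of subunit 6A, had 58.5 and 47.5 CPM in treated liver, against 73.9 and 71.1 CPM in untreated liver (log2 fold change −0.45 ± 0.16 SE, adjusted p = 0.03). Cox6b2, on chromosome 7 at 4751792 to 4753094 (mm10, GENCODE M21), codes for the form of subunit 6B known from testis. It had 2.19 and 1.59 CPM in treated liver, against 0.642 and 0.414 CPM in untreated liver. Cox6b2 changed by 1.83 ± 0.41 (SE) on the log2 scale with an adjusted p of 0.0036. These are low counts, and its widespread partner Cox6b1 stood at 81.8 and 68.9 CPM in treated liver and at 183 and 239.6 CPM in untreated liver (log2 fold change −1.49 ± 0.18 SE, adjusted p = 9.5e-05). Values of the 2 forms of subunit 6B thus differed in opposite directions. Of the muscle forms, Cox7a1 reached at most 1.73 CPM and Cox6a2 was too low to be tested.

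In complex V the parts of the F1 head and central stalk (Atp5a1, Atp5b, Atp5c1, Atp5d and Atp5e) were lower in 5 of 5 cases, with a median of −2.63. Atp5a1, the alpha subunit, had 179 and 149 CPM in treated liver, against 1175 and 1639.9 CPM in untreated liver (log2 fold change −3.10 ± 0.24 SE, adjusted p = 7.3e-06). Atp5b, the catalytic beta subunit, had 311 and 275 CPM in treated liver, against 1493 and 2133 CPM in untreated liver (log2 fold change −2.63 ± 0.21 SE, adjusted p = 9.2e-06). The 15 genes that fell ran from −4.38 to −0.72. The c-ring, which turns as protons pass, is coded by 3 paralogs that give the same mature peptide with different import signals. Atp5g1 had 4.41 and 3.07 CPM in treated liver, against 64.1 and 91.3 CPM in untreated liver. Atp5g1 changed by −4.38 ± 0.27 (SE) on the log2 scale with an adjusted p of 2.2e-06, which was the largest fall among the 77 members tested. Atp5g3 had 60.1 and 51.3 CPM in treated liver, against 388 and 581 CPM in untreated liver (log2 fold change −3.12 ± 0.22 SE, adjusted p = 3.9e-06). Atp5g2 had under 1 CPM in all 9 libraries and passed in neither direction (log2 fold change −0.87 ± 0.98 SE, adjusted p = 0.45). The values of the paralogs are uncertain, since their reads can be split with near-identical copies. The copy Gm10175 of Atp5g2 averaged 28.02 CPM in treated liver and 198 CPM in untreated liver. The copy Gm10039 of Atp5g1 averaged 8.28 CPM in treated liver and 191 CPM in untreated liver. In all, 17 member symbols of this table had 25 such copy rows, here transcripts at least 95% identical over at least 80% of the coding sequence. With the copies added to their genes, an alternative chosen after the data were seen, 72 members were lower and 1 higher.

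The complexes did not keep their proportions. Complex V made up 35.29 and 35.7% of the nuclear sum in treated liver, against 41.2 and 43.0% in untreated liver. Complex IV made up 18.8 and 18.5% in treated liver, against 12.3 and 10.8% in untreated liver. The summed level of complex V divided by that of complex I was 1.21 and 1.24 in treated liver, against 1.69 and 1.83 in untreated liver. It was 1.27 and 1.23 in treated blood, against 1.18, 1.14 and 1.02 in untreated blood. Untreated liver is thus the group with the highest share of complex V and the lowest share of complex IV of the 4 groups, without overlap with any other library. No p is given for sums over members.

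Blood neutrophils of treated mice also had lower levels of the subunit genes, by less. The nuclear sum was 2856 and 2758 CPM in treated blood, against 5219, 4913 and 4971 CPM in untreated blood, and the groups did not overlap. Of 77 members tested, 49 were lower and none was higher (33.6% of all genes were called, 16.2% lower and 17.4% higher), with a median log2 fold change of −0.69, against 0.04 over all genes. By complex, 22 of 36 genes of complex I were lower (median −0.73), 4 of 4 of complex II (−0.74), 7 of 8 of complex III (−0.76), 7 of 13 of complex IV (−0.66) and 9 of 16 of complex V (−0.66). The medians of the 5 complexes thus lay closer together than in liver. The count rests on both treated libraries: without either of them fewer members were called, as were fewer of all genes. The members' median was −0.65 without treated replicate 3 and −0.71 without treated replicate 2. Without untreated replicate 3, whose neutrophil markers were the highest of the table, 55 members were called, where 43.0% of all genes were called. Markers of other cells differed too: 8 platelet markers summed to 1720.0 and 1688 CPM in treated blood, against 295, 496 and 625 CPM in untreated blood. The sum of 10 erythroid markers was 3313 and 446 CPM in treated blood, against 109, 234 and 33.3 CPM in untreated blood. Of 10 macrophage markers 7 were higher in treated blood (Clec4f, Marco and Timd4 were at 0 in untreated blood). Their sum, 642 to 668 CPM in treated blood, lay within the 529 to 923 CPM of untreated blood. Of 12 immature neutrophil markers 7 were higher and 1 lower. They summed to 4859 to 5130 CPM in treated blood, within the 1630 to 5518 CPM of untreated blood. Of 19 hepatocyte markers 13 were lower. The part of these cells in the members' difference was not tested.

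The accessory subunits of complex I led in blood. Ndufa13 had 34.8 and 34.4 CPM in treated blood, against 96.9, 83.6 and 96.8 CPM in untreated blood. Ndufa13 changed by −1.42 ± 0.14 (SE) on the log2 scale with an adjusted p of 4.4e-04. Ndufa7, a small accessory subunit, had 29.6 and 27.6 CPM in treated blood, against 83.5, 79.7 and 75.1 CPM in untreated blood (log2 fold change −1.47 ± 0.15 SE, adjusted p = 5.0e-04). Of the 7 core subunits, 3 were lower, with a median of −0.42 over the 7, against −0.82 over the 29 others. In liver the core subunits had the larger median fall, in blood the others. Sdhd had 64.1 and 61.9 CPM in treated blood, against 156, 147 and 129 CPM in untreated blood (log2 fold change −1.19 ± 0.15 SE, adjusted p = 8.6e-04). Sdhb had 52.0 and 50.2 CPM in treated blood, against 89.2, 84.8 and 105 CPM in untreated blood (log2 fold change −0.86 ± 0.17 SE, adjusted p = 0.006). Uqcrq had 25.6 and 23.1 CPM in treated blood, against 59.6, 50.6 and 60.3 CPM in untreated blood (log2 fold change −1.22 ± 0.21 SE, adjusted p = 0.0032). Uqcrfs1 had 33.8 and 33.2 CPM in treated blood, against 67.5, 72.3 and 60.1 CPM in untreated blood (log2 fold change −0.99 ± 0.19 SE, adjusted p = 0.0042). In each of these genes every treated library lay below every untreated one. They were picked for a small adjusted p, so this separation adds no support of its own.

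In complexes IV and V the genes picked by the smallest adjusted p were likewise separated, which that choice favours. Cox8a, the widespread form of subunit 8, had 69.7 and 67.9 CPM in treated blood, against 195, 168 and 144 CPM in untreated blood (log2 fold change −1.30 ± 0.17 SE, adjusted p = 0.001). Cox4i1 had 153 and 145 CPM in treated blood, against 315, 319 and 296 CPM in untreated blood (log2 fold change −1.05 ± 0.14 SE, adjusted p = 0.0011). Atp5c1, the gamma subunit of the central stalk, had 80.9 and 73.8 CPM in treated blood, against 163, 158 and 137 CPM in untreated blood (log2 fold change −0.98 ± 0.17 SE, adjusted p = 0.0032). Atp5h, the d subunit of the outer stalk, had 25.7 and 23.0 CPM in treated blood, against 47.3, 47.5 and 55.6 CPM in untreated blood (log2 fold change −1.04 ± 0.19 SE, adjusted p = 0.0034). The largest fall was that of Atp5e, the epsilon subunit (log2 fold change −1.53 ± 0.28 SE, adjusted p = 0.0042). Uqcrb, at 14.3 and 11.2 CPM in treated blood, against 8.67, 10.196 and 10.07 CPM in untreated blood, had the most positive value without passing (log2 fold change 0.41 ± 0.21 SE, adjusted p = 0.17).

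The difference between the treatment contrasts in liver and blood was tested directly as an interaction. Of 77 members, 50 had an interaction below 0 (lower in liver relative to blood) and 5 one above 0, in a fit where 54.7% of all genes were called, 31.4% below and 23.3% above 0. The members' median interaction was −1.04 on the log2 scale, against −0.30 over all genes. Below 0 were 7 of 7 core subunits of complex I (median −1.66), led in complex I by Ndufa10 (log2 interaction −2.89 ± 0.24 SE, adjusted p = 2.9e-05) and Ndufa9 (log2 interaction −2.40 ± 0.24 SE, adjusted p = 6.9e-05). Complex II was led by Sdhc (log2 interaction −2.76 ± 0.25 SE, adjusted p = 4.4e-05) and Sdha (log2 interaction −2.29 ± 0.30 SE, adjusted p = 2.7e-04), complex III by Uqcrb (log2 interaction −2.83 ± 0.32 SE, adjusted p = 1.2e-04) and Uqcrfs1 (log2 interaction −2.27 ± 0.27 SE, adjusted p = 1.5e-04). In complex IV these were Cox5a (log2 interaction −1.90 ± 0.25 SE, adjusted p = 2.4e-04) and Cox7b (log2 interaction −1.70 ± 0.28 SE, adjusted p = 8.4e-04), in complex V Atp5g1 (log2 interaction −4.29 ± 0.34 SE, adjusted p = 2.1e-05) and Atp5g3 (log2 interaction −2.59 ± 0.27 SE, adjusted p = 8.6e-05). The 5 genes above 0 were Cox6b2 (log2 interaction 2.17 ± 0.55 SE, adjusted p = 0.0085), Ndufa13 (log2 interaction 1.14 ± 0.20 SE, adjusted p = 0.0011), Ndufb7 (log2 interaction 0.91 ± 0.31 SE, adjusted p = 0.031), Ndufa1 (log2 interaction 0.65 ± 0.24 SE, adjusted p = 0.04) and Cox6a1 (log2 interaction 0.62 ± 0.21 SE, adjusted p = 0.033). Of these 5, Ndufa13, Ndufb7, Ndufa1 and Cox6a1 fell in blood, and Cox6a1 fell in liver too. Over the 77 genes the treatment fold changes in liver and blood had a Pearson r of −0.31 and a Spearman rho of −0.36, against an r of 0.17 over all 16719 genes. The 2 contrasts share no library, genes are not independent points, and all values come from 1 fit.

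**Figure D2:**
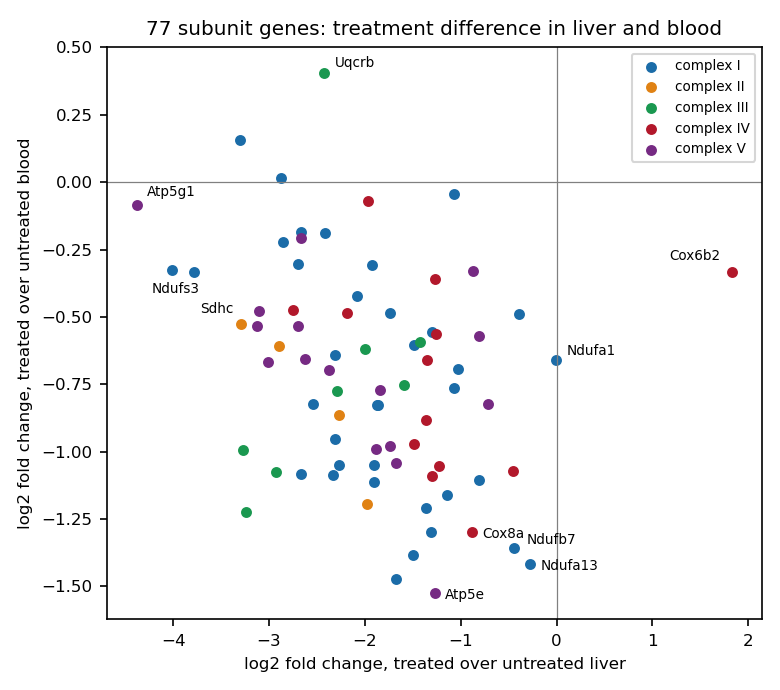
Log2 fold change of treated over untreated liver (x axis) against treated over untreated blood (y axis) for the 77 members tested; each point is a gene, coloured by complex. Nearly all points lie left of and below 0, with Atp5g1 at −4.38 in liver, Atp5e at −1.53 in blood and Cox6b2 alone to the right at 1.83.

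Between the treated groups few subunit genes were called in the main fit. The nuclear sum was 3616 and 3190.0 CPM in treated liver, against 2856 and 2758 CPM in treated blood, without overlap. Higher in treated liver were 8 members and lower 1, of 77, at a background of 21.3% called (9.71% higher), so the members' share of 11.7% was not above the background, and their median was 0.38, against 0.00. Ndufv3, an accessory subunit of the NADH-binding module, had 50.7 and 44.8 CPM in treated liver, against 18.9 and 17.5 CPM in treated blood (log2 fold change 1.39 ± 0.30 SE, adjusted p = 0.01). Atp5e had 152 and 152 CPM in treated liver, against 75.8 and 70.6 CPM in treated blood (log2 fold change 1.05 ± 0.30 SE, adjusted p = 0.034). Atp5h had 43.7 and 35.6 CPM in treated liver, against 25.7 and 23.0 CPM in treated blood (log2 fold change 0.70 ± 0.20 SE, adjusted p = 0.033). Ndufa13 was also higher (log2 fold change 0.68 ± 0.15 SE, adjusted p = 0.01), as were Ndufb6, Ndufb7, Ndufb8 and Ndufs4. The exception was Cox7a2l, which codes for a factor that joins complexes III and IV into supercomplexes: it had 79.8 and 77.5 CPM in treated liver, against 142 and 136 CPM in treated blood (log2 fold change −0.82 ± 0.14 SE, adjusted p = 0.0031). This count moved with the fit. With any one of the 4 libraries left out fewer members were called, as were fewer of all genes. The members' median was then 0.37 without blood replicate 2 and 0.36 without blood replicate 3. It was 0.24 without liver replicate 1 and 0.51 without liver replicate 2. With only these 2 groups in the fit 39 members were higher and 2 lower of 76, where 52.6% of all genes were called. Without the untreated liver libraries, an alternative chosen after the data were seen, 13 were higher and 1 lower of 76, where 22.2% of all genes were called. DESeq2 gave 17 higher and 1 lower (24.7%). Immature neutrophil markers summed to 32681 to 36772 CPM in treated liver, against 4859 to 5130 CPM in treated blood. Platelet markers summed to 8.32 to 8.98 CPM, against 1688 to 1720 CPM, and macrophage markers to 217 to 220 CPM, against 642 to 668 CPM. The part of these cells was not tested.

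Between the untreated groups the difference was wide. Higher in untreated liver were 63 of 77 members and lower 4, with 64.3% of all genes called (35.6% higher, 28.7% lower), and the median was 1.40, against 0.10 over all genes. By complex, 29 of 36 genes of complex I, 4 of 4 of complex II, 8 of 8 of complex III, 8 of 13 of complex IV and 14 of 16 of complex V were higher. Uqcrb had 85.6 and 135 CPM in untreated liver, against 8.67, 10.196 and 10.07 CPM in untreated blood (log2 fold change 3.51 ± 0.22 SE, adjusted p = 1.4e-06). Ndufa10 had 109.8 and 139.5 CPM in untreated liver, against 15.6, 14.3 and 13.2 CPM in untreated blood (log2 fold change 3.12 ± 0.17 SE, adjusted p = 5.4e-07). Sdhc (log2 fold change 3.02 ± 0.17 SE, adjusted p = 7.8e-07), Cox7b (log2 fold change 2.12 ± 0.19 SE, adjusted p = 1.1e-05) and Atp5g1 (log2 fold change 4.50 ± 0.23 SE, adjusted p = 4.6e-07) were called in the other complexes. The 4 genes lower in untreated liver were Cox6b2, Cox6a1, Ndufa13 and Cox8a. Cox6b2 had 0.642 and 0.414 CPM in untreated liver, against 1.79, 2.02 and 1.57 CPM in untreated blood (log2 fold change −1.76 ± 0.39 SE, adjusted p = 0.0032). Cox6a1 (log2 fold change −0.53 ± 0.15 SE, adjusted p = 0.0099), Ndufa13 (log2 fold change −0.47 ± 0.13 SE, adjusted p = 0.012) and Cox8a (log2 fold change −0.44 ± 0.17 SE, adjusted p = 0.042) differed by less. Hepatocyte markers are at 16383 and 21839 CPM in the untreated liver libraries and at 48.5, 67.9 and 38.6 CPM in untreated blood; their part was not tested.

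Compared per kilobase of exon over the 9 libraries, the highest members were Cox6b1 (188 CPM per kb), Cox8a (185) and Cox4i1 (160.3) in complex IV, and Atp5b (152), Atp5a1 (146) and Atp5e (115) in complex V. Complex II was led by Sdhd (121 CPM per kb), then Sdhb (49.0) and Sdha (44.3), and complex III by Uqcrfs1 (96.6), Uqcrh (95.9) and Uqcr10 (69.6). In complex I the highest were Ndufb9 (91.9 CPM per kb), Ndufb11 (85.2) and Ndufa8 (84.3). The order changed with the group: in treated liver Cox8a stood at 109 and Atp5a1 at 52.4 CPM per kb, and in untreated liver at 202 and 449 CPM per kb. Complexes differ widely between their own members in these levels, from 0.0843 to 188 CPM per kb in complex IV and from 0.286 to 152 in complex V. The exon length joins the exons of all annotated transcripts of a gene, and came to 6.443 kb for Atp5l and 4.522 kb for Ndufb7. How far these lengths shape the order and the spread was not tested. Levels of genes with near-identical copies are uncertain: Cox7c stood at 3.13 CPM per kb, while its copies Gm12338 and Gm10012 averaged 20.6 and 11.4 CPM in treated liver, where Cox7c averaged 2.61 CPM. The first table has no mt- rows among those used here, but 3 nuclear rows with mitochondrial sequence, Gm13340, Gm29216 and Gm28439, had counts. Gm13340 stood at 3731 and 2816 CPM in treated liver, against 1320.4 and 907 CPM in untreated liver, and at 2700.1 and 2725 CPM in treated blood, against 1418, 1709 and 2114 CPM in untreated blood. For this row treated libraries were higher in both tissues, opposite to the nuclear subunits. Gm13340 is a near-identical copy of mt-Co1. In the second table it averaged 1.33 to 5.35 CPM by group, while mt-Co1, which has a row there, averaged 2254 to 12014 CPM. Whether the reads of Gm13340 in the first table came from mitochondrial transcripts was not tested.

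Under anti-GCF the nuclear sum was 4300.2, 4296 and 4649 CPM, under anti-IL35 4209 and 4066 CPM, under anti-TGFb 3514 and 4048 CPM, under anti-IL21R 3780.1, 3164 and 3145 CPM and under anti-IL10 2809 and 3278 CPM, against 3152, 4069 and 4017 CPM under isotype. The 3 anti-GCF libraries were above all isotype libraries, and the libraries of every other antibody overlapped the isotype range of 3152 to 4069 CPM. By complex, anti-GCF had the highest mean sum for complexes II to V and anti-IL35 for complex I (1252 ± 44.8 CPM under anti-IL35, SD over 2 libraries), and anti-IL10 had the lowest mean for complexes I to IV and for all nuclear genes together. Complex V divided by complex I came to 1.501 and 1.55 under anti-TGFb, 1.48 and 1.43 under anti-IL10 and 1.46, 1.47 and 1.39 under anti-GCF, against 1.19, 1.26 and 1.28 under isotype, without overlap with the isotype libraries. Under anti-IL35 the ratio of 1.17 and 1.08 lay below all isotype libraries, and under anti-IL21R the 1.20, 1.14 and 1.29 overlapped them. All 5 antibody comparisons share the 3 isotype libraries. A joint test over the 6 groups called 68 of 86 members tested, at a background of 76.4% of 16812 genes, and 34 of 86 without the anti-GCF libraries in the fit, where 49.0% of all genes were called; this alternative was chosen after the data were seen.

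The 7 mitochondrial genes were the members with the highest levels per kilobase: mt-Co1, the catalytic subunit of complex IV, stood at 3739, mt-Cytb, the membrane core of complex III, at 3079.8 and mt-Nd1, part of the membrane arm of complex I, at 2179 CPM per kb over the 15 libraries. The highest nuclear members were Cox4i1 (128 CPM per kb), Cox6b1 (109), Cox6a1 (97.0) and Atp5a1 (92.6). Summed, the 7 genes gave 34121, 24567 and 26597 CPM under anti-GCF, 6513, 6842 and 5064 CPM under anti-IL21R, 11392 and 14181 CPM under anti-TGFb, 9386 and 51411 CPM under anti-IL35 and 14870.2 and 11660.2 CPM under anti-IL10, against 7026, 5969 and 15318 CPM under isotype. The 3 anti-GCF libraries lay above all isotype libraries, and the pair under anti-IL35 lay on either side of them. The mitochondrial sum divided by the nuclear one was 7.93, 5.72 and 5.72 under anti-GCF, 1.72, 2.16 and 1.61 under anti-IL21R, 3.24 and 3.50 under anti-TGFb, 2.23 and 12.6 under anti-IL35 and 5.29 and 3.56 under anti-IL10, against 2.23, 1.47 and 3.81 under isotype. Anti-IL35 replicate 2 had the highest value of the 15 libraries, and its macrophage markers were at 2459 CPM, against 315 CPM in replicate 1. Isotype replicate 3 was the highest of its group in both the mitochondrial sum and hepatocyte markers (104, 144 and 355 CPM over the 3). The anti-TGFb libraries had the highest hepatocyte markers, 648 and 792 CPM, with ratios of 3.24 and 3.50, below those of anti-GCF. The part of these cells in the mitochondrial values was not tested.

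**Figure D3:**
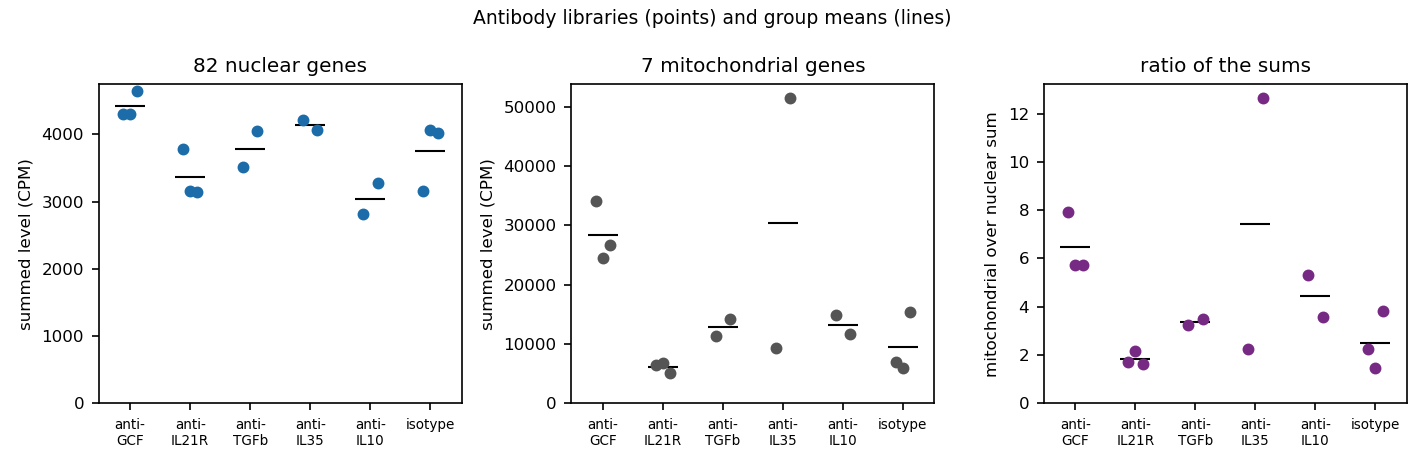
Summed level of the 82 nuclear genes (left, CPM), of the 7 mitochondrial genes (middle, CPM) and their ratio (right) in the 15 antibody libraries; points are libraries and lines group means, with isotype at the right of each panel. The 3 anti-GCF libraries lie above the isotype libraries in all 3 panels, and the anti-IL35 pair is far apart in the middle panel, at 9386 and 51411 CPM.

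Under anti-GCF 39 of 86 members were higher and 8 lower, at a background of 57.8% called (31.6% higher, 26.3% lower), with a median log2 fold change of 0.35, against 0.11 over all genes. RLE scaling gave 32 higher and 10 lower and upper-quartile scaling 31 higher and 13 lower, the last with a median over all genes of −0.02. All 7 mitochondrial genes were higher, with log2 fold changes between 1.51 and 1.90, and 32 of 79 nuclear genes were higher and 8 lower, with a median of 0.27. Of mt-Nd6, the only member coded on the other mitochondrial strand, there were 946, 758 and 746 CPM under anti-GCF, against 161, 157 and 336 CPM under isotype (log2 fold change 1.90 ± 0.41 SE, adjusted p = 0.0017). For mt-Co1 the values were 11513, 7458 and 8920.3 CPM under anti-GCF, against 2312, 2164 and 5082 CPM under isotype (log2 fold change 1.55 ± 0.52 SE, adjusted p = 0.022), and for mt-Nd1 4525, 3262 and 3537 CPM under anti-GCF, against 866, 743 and 1798 CPM under isotype (log2 fold change 1.73 ± 0.50 SE, adjusted p = 0.0098). The groups did not overlap in these 3 genes, and the isotype libraries spread more than 2-fold. The other mitochondrial members were mt-Nd2 (log2 fold change 1.64 ± 0.56 SE, adjusted p = 0.024), mt-Nd4 (log2 fold change 1.57 ± 0.45 SE, adjusted p = 0.0098), mt-Nd5 (log2 fold change 1.64 ± 0.44 SE, adjusted p = 0.0063) and mt-Cytb (log2 fold change 1.51 ± 0.50 SE, adjusted p = 0.02).

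Of the nuclear genes, 17 of 36 in complex I were higher and 5 lower, 2 of 4 in complex II higher, 5 of 8 in complex III higher and 1 lower, 3 of 14 in complex IV higher and 1 lower, and 5 of 17 in complex V higher and 1 lower. All 7 core subunits of complex I were higher (median 0.58), against 10 of the 29 others, of which 5 were lower (median 0.06). Ndufs3 had 13.3, 11.5 and 12.7 CPM under anti-GCF, against 5.78, 6.67 and 7.19 CPM under isotype. Ndufs3 changed by 0.93 ± 0.15 (SE) on the log2 scale with an adjusted p of 1.5e-04. Ndufa5, an accessory subunit of the same arm, had 10.23, 9.88 and 12.3 CPM under anti-GCF, against 4.21, 5.61 and 5.59 CPM under isotype (log2 fold change 1.07 ± 0.18 SE, adjusted p = 2.0e-04). Sdha had 161, 156 and 157 CPM under anti-GCF, against 60.2, 87.9 and 78.3 CPM under isotype (log2 fold change 1.07 ± 0.16 SE, adjusted p = 7.5e-05). These 3 genes were higher in every anti-GCF library than in any isotype library, which their choice by the smallest adjusted p favours. Sdhc (log2 fold change 0.57 ± 0.19 SE, adjusted p = 0.02) was called with Sdha, and in complex III Uqcrh, the hinge protein (log2 fold change 0.53 ± 0.15 SE, adjusted p = 0.007), and Uqcrc1, a core protein (log2 fold change 0.51 ± 0.14 SE, adjusted p = 0.0071), led. Cox7a2l, the supercomplex factor, had 82.4, 71.7 and 78.0 CPM under anti-GCF, against 29.7, 42.7 and 44.4 CPM under isotype (log2 fold change 0.99 ± 0.18 SE, adjusted p = 4.4e-04). Cox5a had 36.2, 42.1 and 53.1 CPM under anti-GCF, against 21.9, 27.5 and 23.2 CPM under isotype (log2 fold change 0.85 ± 0.15 SE, adjusted p = 3.7e-04). Atp5a1 had 426, 394 and 438 CPM under anti-GCF, against 213, 273 and 243 CPM under isotype (log2 fold change 0.79 ± 0.14 SE, adjusted p = 4.1e-04), and Atp5mpl, a small membrane-part subunit, was also higher (log2 fold change 0.68 ± 0.16 SE, adjusted p = 0.0027).

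The 8 genes lower under anti-GCF were small or accessory subunits. Atp5l, the g subunit of the membrane part, had 2.56, 3.55 and 3.47 CPM under anti-GCF, against 31.0, 14.6 and 19.3 CPM under isotype. Atp5l changed by −2.76 ± 0.38 (SE) on the log2 scale with an adjusted p of 5.7e-05, the largest change of the 86 members tested. Cox7c had 0.386, 0.650 and 0.740 CPM under anti-GCF, against 2.99, 0.657 and 0.969 CPM under isotype (log2 fold change −1.36 ± 0.54 SE, adjusted p = 0.045), with overlapping values. Uqcrq had 42.5, 50.9 and 57.0 CPM under anti-GCF, against 103, 87.6 and 99.4 CPM under isotype (log2 fold change −0.95 ± 0.15 SE, adjusted p = 1.6e-04). Atp5l has 8 near-identical copies, of which 3 have rows in this table, averaging at most 0.180 CPM in any group. Its copy Gm10221 has no row here, but averaged 69.5 CPM in treated liver of the first table, where Atp5l averaged 46.4 CPM. Cox7c has 3 such copies, and none has a row here. How reads of copies without a row affect Atp5l and Cox7c cannot be seen. The complex I genes were Ndufb7, with 46.1, 44.5 and 48.3 CPM under anti-GCF, against 72.1, 95.3 and 84.9 CPM under isotype (log2 fold change −0.86 ± 0.18 SE, adjusted p = 9.7e-04), Ndufv3 (log2 fold change −0.81 ± 0.17 SE, adjusted p = 0.0013), Ndufa1 (log2 fold change −0.49 ± 0.18 SE, adjusted p = 0.03), Ndufb11 (log2 fold change −0.48 ± 0.15 SE, adjusted p = 0.014) and Ndufs4 (log2 fold change −0.45 ± 0.16 SE, adjusted p = 0.029). Ndufa1 and Ndufb11 are both X-linked membrane-arm subunits. With the anti-GCF libraries all 10 macrophage markers were higher (median 4.35) and 10 of 12 neutrophil markers lower (median −2.32). All 12 immature neutrophil markers were lower (3434 ± 1546 CPM summed under anti-GCF, against 36033 ± 7258 CPM under isotype, SD, n = 3 each). B cell markers summed to 7065 ± 2949 CPM under anti-GCF, against 2597 ± 175 CPM under isotype, with 4 of 7 higher. Of 6 liver endothelium markers 2 were higher, and of 8 platelet markers 2 were higher and 1 lower. The part of those cells in the members' difference was not tested.

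**Figure D4:**
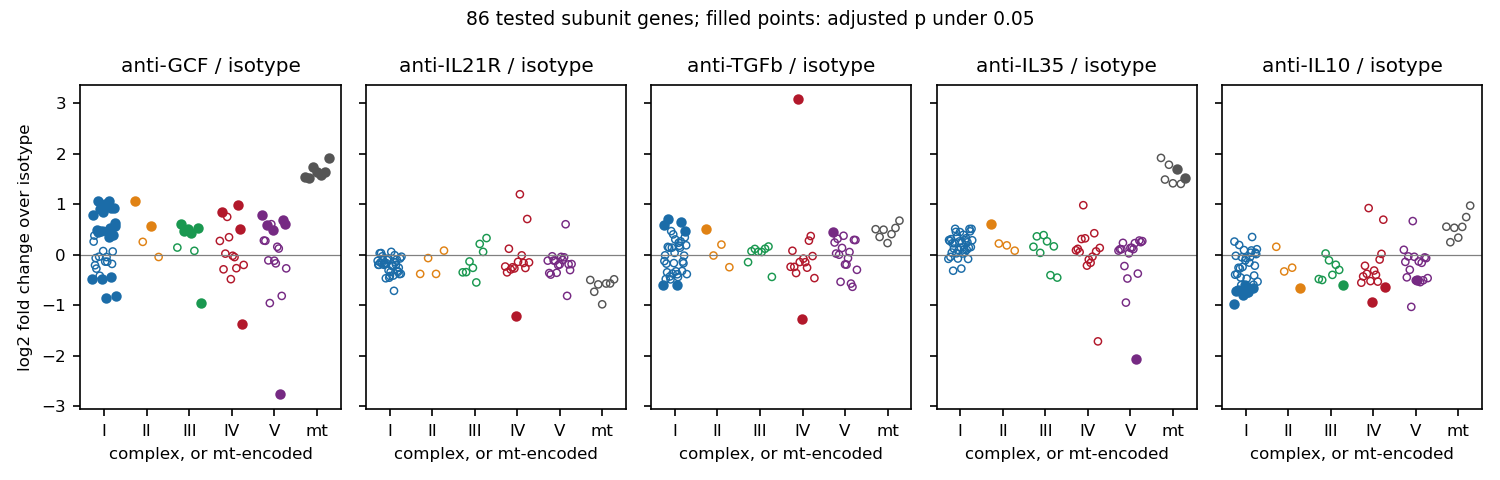
Log2 fold change of each antibody group over isotype (y axis) for the 86 members tested, by complex for nuclear genes and apart for mitochondrial genes (x axis, mt); filled points passed an adjusted p of 0.05. The 7 mitochondrial genes stand highest under anti-GCF, from 1.51 to 1.90, and the single filled point near 3 under anti-TGFb is Cox6a2 at 3.07.

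Under anti-TGFb 7 members were higher and 3 lower of 86, not above the background of 27.6% called (17.5% higher, 10.0% lower), with a median of 0.04, against 0.01 over all genes. With RLE scaling 5 were higher and 4 lower, and with upper-quartile scaling 7 and 4. Cox6a2, the heart and skeletal muscle form of subunit 6A, on chromosome 7 at 128205435 to 128206387 (mm10), had 5.25 and 6.60 CPM under anti-TGFb, against 1.61, 0.253 and 0.298 CPM under isotype. Cox6a2 changed by 3.07 ± 0.87 (SE) on the log2 scale with an adjusted p of 0.022. Both anti-TGFb libraries lay above all other 13 libraries, whose highest value was 2.38 CPM, and its widespread partner Cox6a1 had 52.4 and 60.6 CPM under anti-TGFb and 57.5, 84.2 and 75.9 CPM under isotype (log2 fold change −0.36 ± 0.20 SE, adjusted p = 0.19). The 5 muscle markers in the table summed to 6.89 and 6.97 CPM under anti-TGFb, against 8.45, 8.22 and 9.43 CPM under isotype. T and NK cell markers summed to between 840 and 876 CPM under anti-TGFb, against 280 to 419 CPM under isotype. For neutrophil markers the range was 84117 to 89945.5 CPM under anti-TGFb, against 145606 to 173673 CPM under isotype. The part of these or other cells in the Cox6a2 values was not tested. Ndufs3 had 9.67 and 10.8 CPM under anti-TGFb, against 5.78, 6.67 and 7.19 CPM under isotype (log2 fold change 0.64 ± 0.16 SE, adjusted p = 0.012). Ndufa10 had 36.9 and 39.9 CPM under anti-TGFb, against 22.6, 27.5 and 26.2 CPM under isotype (log2 fold change 0.59 ± 0.16 SE, adjusted p = 0.014). Sdha had 105 and 109 CPM under anti-TGFb, against 60.2, 87.9 and 78.3 CPM under isotype (log2 fold change 0.50 ± 0.17 SE, adjusted p = 0.043). Atp5a1 had 311 and 353 CPM under anti-TGFb, against 213, 273 and 243 CPM under isotype (log2 fold change 0.45 ± 0.16 SE, adjusted p = 0.049). Ndufa5 and Ndufv1 were the other 2 that were higher. Lower were Cox6b2, with 0.879 and 1.23 CPM under anti-TGFb, against 2.40, 2.91 and 2.31 CPM under isotype (log2 fold change −1.27 ± 0.30 SE, adjusted p = 0.0074), Ndufb7 (log2 fold change −0.60 ± 0.20 SE, adjusted p = 0.041) and Ndufa1 (log2 fold change −0.60 ± 0.20 SE, adjusted p = 0.043). With either anti-TGFb library left out fewer members were called, as were fewer of all genes. The members' median was 0.13 without anti-TGFb replicate 1 and −0.04 without replicate 2. Leaving out isotype replicate 3 left 5 calls, with 22.5% of all genes called. Without the anti-GCF libraries in the fit, chosen after the data were seen, 6 remained, with 21.8% of all genes called.

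Over the 76 members tested in both tables, the fold changes of anti-TGFb over isotype and of untreated liver over untreated blood had a Pearson r of 0.67 and a Spearman rho of 0.66; over all 13961 genes in both tables r was 0.54. The anti-TGFb comparison was picked after the values were seen, as the one with the highest r of the 5 antibodies. Against untreated liver over untreated blood, the members' r was 0.44 for anti-IL10, 0.39 for anti-GCF, 0.15 for anti-IL21R and −0.03 for anti-IL35, and over all genes 0.38, 0.30, −0.18 and −0.15 in that order. The antibody comparisons share the isotype libraries. The tables compared share no library, but genes are not independent points. Hepatocyte markers moved in both: under anti-TGFb they summed to 648 and 792 CPM, against 104, 144 and 355 CPM under isotype, and 12 of 19 were called higher and none lower (median 1.90). Ndufa5 and Ndufs3 stood at the upper end in both comparisons and Cox6b2 at the lower end. Atp5g1 and Cox7a1 lay apart, with −0.54 and −0.15 under anti-TGFb and 4.50 and 2.95 between untreated liver and blood, and both had under 1 CPM in most antibody libraries. Of 12 T and NK cell markers 11 were higher under anti-TGFb and 6 of 12 immature neutrophil markers lower. The part of these cells in the fold changes was not tested.

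**Figure D5:**
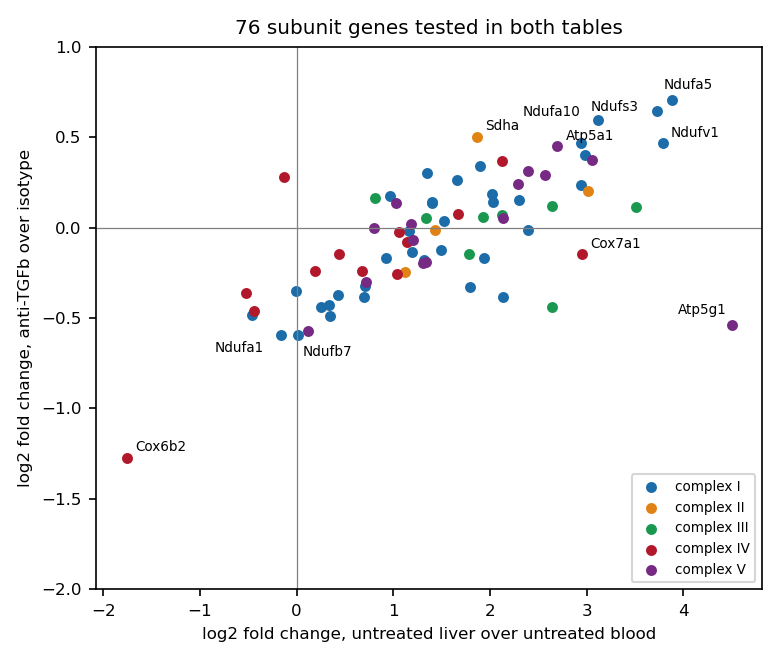
Log2 fold change of untreated liver over untreated blood (x axis, first table) against anti-TGFb over isotype (y axis, second table) for the 76 members tested in both; each point is a gene, coloured by complex. The points run from Cox6b2 at the lower left to Ndufa5 and Ndufs3 at the upper right, with a Pearson r of 0.67, and Atp5g1 and Cox7a1 lie below.

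Under anti-IL35 3 of 86 members were higher and 1 lower, at a background of 9.33% called (4.81% higher, 4.51% lower). Sdha had 108 and 123 CPM under anti-IL35, against 60.2, 87.9 and 78.3 CPM under isotype (log2 fold change 0.61 ± 0.17 SE, adjusted p = 0.04), without overlap. The mitochondrial genes mt-Nd4 (log2 fold change 1.69 ± 0.49 SE, adjusted p = 0.048) and mt-Nd6 (log2 fold change 1.51 ± 0.44 SE, adjusted p = 0.049) were also called, and their high values come from 1 library: mt-Nd4 had 1076 and 4968 CPM under anti-IL35, against 727, 606 and 1476 CPM under isotype. Atp5l was lower, with 7.66 and 2.65 CPM under anti-IL35, against 31.0, 14.6 and 19.3 CPM under isotype (log2 fold change −2.06 ± 0.43 SE, adjusted p = 0.014). Without anti-IL35 replicate 2 fewer members and fewer of all genes were called, and without replicate 1 more of both. The members' median was 0.17 without replicate 2 and 0.16 without replicate 1, against 0.15 in the main fit. Leaving out isotype replicate 1 left 1 call (5.39% of all genes called) and isotype replicate 2 left 2 (8.52%). Upper-quartile scaling left 1, lower (8.19% of all genes called).

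Under anti-IL10 no member was higher and 13 of 86 were lower, at a background of 17.6% called (6.98% lower, 10.6% higher), with a median of −0.26, against 0.03 over all genes. The 13 were 8 accessory genes of complex I and Sdhd, Uqcrq, Cox8a, Cox6b2 and Atp5j, and none of the 7 core subunits of complex I was among them (median 0.04, against −0.41 over the 29 others). Ndufa1 had 16.4 and 25.4 CPM under anti-IL10, against 35.5, 46.4 and 41.9 CPM under isotype (log2 fold change −0.98 ± 0.21 SE, adjusted p = 0.0083). Ndufb11 had 34.6 and 43.8 CPM under anti-IL10, against 59.8, 74.0 and 70.1 CPM under isotype (log2 fold change −0.79 ± 0.17 SE, adjusted p = 0.0091). Sdhd had 56.2 and 72.6 CPM under anti-IL10, against 92.3, 106 and 105 CPM under isotype (log2 fold change −0.65 ± 0.16 SE, adjusted p = 0.016). Uqcrq had 55.0 and 71.6 CPM under anti-IL10, against 103, 87.6 and 99.4 CPM under isotype (log2 fold change −0.61 ± 0.17 SE, adjusted p = 0.029). In these 4 genes, picked by the smallest adjusted p, both anti-IL10 libraries lay below all isotype libraries, which that choice favours. Cox8a (log2 fold change −0.64 ± 0.18 SE, adjusted p = 0.032), Cox6b2 (log2 fold change −0.94 ± 0.29 SE, adjusted p = 0.041) and Atp5j, coupling factor 6 of the outer stalk (log2 fold change −0.51 ± 0.17 SE, adjusted p = 0.0498), were also lower. Neutrophil markers summed to 45243 and 99200.3 CPM in the anti-IL10 libraries and hepatocyte markers to 417 and 409 CPM, and 10 of 12 T and NK cell markers were higher than under isotype; their part was not tested. The count rests on single libraries. Without anti-IL10 replicate 1 fewer members and fewer of all genes were called, and the members' median was −0.17. Leaving out isotype replicate 1 gave 25 calls, 24 lower and 1 higher, with 18.9% of all genes called. Leaving out isotype replicate 2 or isotype replicate 3 left 4 each, with 8.82% and 11.3% of all genes called. Without the anti-GCF libraries in the fit 6 members and 12.4% of all genes were called.

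Under anti-IL21R no member was higher and 1 was lower, at a background of 2.23% called (1.15% lower), with a median of −0.20, against −0.02 over all genes. That gene was Cox6b2, with 1.14, 0.898 and 1.25 CPM under anti-IL21R, against 2.40, 2.91 and 2.31 CPM under isotype (log2 fold change −1.21 ± 0.26 SE, adjusted p = 0.042), without overlap. It was not called when any one library of either group was left out other than isotype replicate 1. Without that library 10 members were called, where 12.6% of all genes were called. In the other fits with a library left out at most 1.12% of all genes were called. The 7 mitochondrial genes had values between −0.98 and −0.49 and none passed. Cox6b2 was thus lower under 3 of the 5 antibodies, which share their isotype libraries.

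Assembly factors, which build the complexes and are not part of them, moved with the subunits in treated against untreated liver: 0 higher and 39 lower of 44 tested (median −2.05), at a background of 64.1% of all genes called. The smallest adjusted p went to Coa7, named as a complex IV assembly factor (log2 fold change −5.05 ± 0.32 SE, adjusted p = 2.5e-06), and to Taco1, which activates translation of the mitochondrial Cox1 message (log2 fold change −3.09 ± 0.23 SE, adjusted p = 5.5e-06). Citric acid cycle enzymes counted 0 higher and 15 lower of 16 tested (median −1.40), led by Suclg2 (log2 fold change −6.01 ± 0.26 SE, adjusted p = 6.4e-07) and Suclg1 (log2 fold change −3.69 ± 0.21 SE, adjusted p = 1.4e-06), subunits of succinyl-CoA ligase. Electron carriers and coupled factors counted 1 higher and 7 lower of 10 tested (median −1.66): Etfdh (log2 fold change −3.47 ± 0.17 SE, adjusted p = 7.9e-07) and Etfa (log2 fold change −4.76 ± 0.24 SE, adjusted p = 9.9e-07), which pass electrons from fatty acid oxidation to ubiquinone, fell, and the uncoupling protein Ucp2 rose (log2 fold change 0.66 ± 0.20 SE, adjusted p = 0.015). Genes of the mitochondrial envelope counted 0 higher and 13 lower of 15 tested (median −1.60), led by Chchd3, part of the cristae junction complex (log2 fold change −3.54 ± 0.23 SE, adjusted p = 2.6e-06), and the prohibitin Phb2 (log2 fold change −2.89 ± 0.20 SE, adjusted p = 3.5e-06). Regulators and mitochondrial genome expression counted 3 higher and 8 lower of 16 tested (median −1.31): Lrpprc, which stabilises mitochondrial messages, fell (log2 fold change −3.98 ± 0.32 SE, adjusted p = 9.7e-06), as did the mitochondrial transcription factor Tfb2m (log2 fold change −3.01 ± 0.34 SE, adjusted p = 6.1e-05), and the transcription factor Nrf1 rose (log2 fold change 1.18 ± 0.15 SE, adjusted p = 1.2e-04).

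In treated against untreated blood the assembly factors counted 2 higher and 14 lower of 44 tested (median −0.20), citric acid cycle enzymes 1 higher and 6 lower of 16 tested (median −0.34) and envelope genes 3 higher and 6 lower of 15 tested (median −0.12), at a background of 33.6% of all genes called. Surf1, a complex IV factor, fell there (log2 fold change −1.08 ± 0.15 SE, adjusted p = 0.0013), and Opa1, which fuses inner membranes, rose (log2 fold change 1.07 ± 0.16 SE, adjusted p = 0.0016). Ucp2 fell in blood (log2 fold change −1.23 ± 0.19 SE, adjusted p = 0.0017), opposite to liver, with an interaction between tissue and treatment (log2 interaction 1.89 ± 0.27 SE, adjusted p = 4.2e-04). Under anti-GCF the assembly factors counted 23 higher and 4 lower of 43 tested (median 0.52), citric acid cycle enzymes 11 higher and 2 lower of 16 tested (median 0.62), carriers 7 higher and 0 lower of 10 tested (median 0.79), envelope genes 9 higher and 2 lower of 15 tested (median 0.84) and regulators 6 higher and 4 lower of 16 tested (median 0.03), at a background of 57.8% called. Slc25a4, an ADP/ATP carrier, had the smallest adjusted p among the carriers (log2 fold change 2.45 ± 0.21 SE, adjusted p = 2.0e-06), and Immt, which shapes the cristae, among the envelope genes (log2 fold change 1.34 ± 0.13 SE, adjusted p = 3.8e-06). Under anti-TGFb, at a background of 27.6% called, the assembly factors counted 13 higher and 1 lower of 43 tested (median 0.34) and the citric acid cycle enzymes 6 higher and 0 lower of 16 tested (median 0.23), with Slc25a4 (log2 fold change 1.60 ± 0.22 SE, adjusted p = 3.2e-04) and Lrpprc (log2 fold change 1.48 ± 0.19 SE, adjusted p = 2.1e-04) higher. Under anti-IL10, at a background of 17.6% called, these lists counted 2 higher and 1 lower of 43 tested (median 0.18) and 3 higher and 1 lower of 16 tested (median −0.03), with Lrpprc higher (log2 fold change 1.22 ± 0.19 SE, adjusted p = 0.0018), while the subunit genes called in that comparison were all lower.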

How the data were processed

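Bulk RNA-seq was measured in 9 blood and liver libraries and in 15 antibody libraries, deposited as 2 tables. Per the submitters' processing notes, Bowtie2 2.2.5, STAR 2.5.3a, Partek, DESeq2 and the mm10 build were used; the role of each tool, the counter and the annotation are not given in the sources used here. The antibody table holds raw counts per gene as deposited by the authors. The 9-library table holds estimated counts, that is expected counts of reads per gene, as deposited by the authors, of which 44.4% were not whole numbers. They were rounded here. Each table was analysed apart.

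Genes were kept by edgeR's filterByExpr (16719 and 16812 genes), scaled by TMM and tested over all groups of a table with edgeR 4.0.16's robust quasi-likelihood test in R 4.3.3 (limma 3.58.1), with Benjamini-Hochberg adjustment over all genes and a threshold of 0.05. A standard error is the log2 fold change divided by the square root of its F. Library totals are given at the start, and n of 2 or 3 limits the precision. Levels per kilobase use GENCODE M21 exon lengths, joined over all annotated transcripts of a gene. Copies were found with BLAST+ 2.17.0, and promoters come from RefSeq. Scripts ran in Python 3.11.15 and were tested on simulated data.

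Named are, per comparison, complex and direction, the 2 called members with the smallest adjusted p; members called against the majority; the 3 highest per kilobase per complex; all Sdh and mitochondrial genes, c-ring paralogs and tissue isoforms; and up to 2 genes per pathway list and comparison. Further genes named for their values were chosen after these were seen. The members and lists were chosen with earlier results of these data known. Alternatives were RLE and upper-quartile scaling, no filter on low counts, replicate blocks, DESeq2 1.42.0, only the groups compared and each library left out; fits without the untreated liver or the anti-GCF libraries and with copies added were chosen after seeing the data.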

Additional observations from a re-analysis of the deposited data

Results flagged for a closer look

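The effect of treatment was tested for a difference between liver and blood, and 55 of 77 members passed (edgeR quasi-likelihood test), 50 with an interaction below 0 (lower in liver relative to blood) and 5 above 0, at a background of 54.7% of all genes. The untreated liver libraries, which enter this contrast, are the ones with the high hepatocyte marker sums, and their part was not tested.

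Below 0, the log2 interaction was −4.29 for Atp5g1 and −2.59 for Atp5g3, both c-ring genes of complex V. In complex I it was −2.89 for Ndufa10 and −2.40 for Ndufa9. In complex II it was −2.76 for Sdhc and −2.29 for Sdha, and in complex III −2.83 for Uqcrb and −2.27 for Uqcrfs1. In complex IV it was −1.90 for Cox5a and −1.70 for Cox7b.

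Above 0, the log2 interaction was 2.17 for Cox6b2, 1.14 for Ndufa13, 0.91 for Ndufb7, 0.65 for Ndufa1 and 0.62 for Cox6a1.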

How the results depend on the processing

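The counts of members called for treated against untreated liver (72), treated against untreated blood (49), untreated liver against untreated blood (67), the interaction (55) and anti-GCF (47) stayed within 1.5 times under each scaling, filter, block and tool, and so did all but the following. Treated liver against treated blood gave 9 members (21.3% of all genes called), 15 with RLE scaling (21.8%), 18 with DESeq2 (24.7%), 41 with only the groups compared (52.6%) and 14 without the untreated liver libraries (22.2%). Anti-IL21R gave 1 (2.23% of all genes called), 2 with DESeq2 (6.85%) and 0 with only the groups compared (0.155%) or without anti-GCF (0.258%). Anti-TGFb gave 10 (27.6%), and 6 without anti-GCF (21.8%). Anti-IL35 gave 4 (9.33%), and 1 with upper-quartile scaling (8.19%), without a filter on low counts (5.57%) or without anti-GCF (4.36%). It gave 8 with DESeq2 (10.4%) and 0 with only the groups compared (0%). Anti-IL10 gave 13 (17.6%), 21 with DESeq2 (17.7%), 0 with only the groups compared (6.9%) and 6 without anti-GCF (12.4%). The joint test over antibody groups gave 68 (76.4% of all genes), and 34 without anti-GCF (49.0%). Mean nuclear sums moved past 1 SD to 2990.6 CPM in treated blood with upper-quartile scaling, to 4209.6 (RLE) and 4177 CPM (upper quartile) under anti-GCF, and to 3995 CPM under anti-IL35 with upper-quartile scaling. The cause was not tested.

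With 1 library left out at a time, the counts ran from 65 to 70 for treated against untreated liver, 15 to 55 for blood, 1 to 2 for treated liver against treated blood, 57 to 67 for untreated liver against untreated blood and 39 to 58 for the interaction. They ran from 35 to 44 for anti-GCF, 0 to 10 for anti-IL21R, 1 to 10 for anti-TGFb, 0 to 11 for anti-IL35, 0 to 25 for anti-IL10 and 57 to 72 for the joint test. A group cut to 1 library was taken to vary like the others. The share of all genes called moved too: it ran from 0.0119% to 12.6% for anti-IL21R and from 51.0% to 53.3% for anti-GCF.

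The replicate numbers were not taken to pair the samples, since not every same-numbered pair of libraries had deviations correlated over 0.1: 0 of 10 pairs in the first table (−0.07 to 0.07), and in the second 10 of 33 by title number and 7 of 30 by library-name number (−0.30 to 0.29). With the replicate block by title number and by library-name number, anti-IL21R gave 0 and 0, anti-TGFb 5 and 6, anti-IL35 1 and 1 (Atp5l, lower; Sdha, mt-Nd4 and mt-Nd6 no longer passed) and anti-IL10 8 and 8 members; the other counts stayed within 1.5 times (71 and 71 for treated against untreated liver, 46 and 51 for blood).

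Over 93 pairs of a named gene and a comparison, 1292 alternative values kept their direction; 1111 kept their side of the threshold and 181 no longer passed. Groups of 2 or 3 libraries limit what differences can be detected.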

Other observations

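The 3 members of the antibody table too low to be tested were Cox4i2, the lung and oxygen-responsive form of subunit 4, Ndufa4l2 and Cox6c2. The highest value of any of them in any library was 0.336 CPM, for Cox4i2 under anti-GCF. Ndufa4l2 reached 0.325 CPM under anti-GCF and was at 0 in all 3 isotype libraries.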
